A study of Homo sapiens with 6 samples.

Results

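The regions described here are marked LSD1 peaks of vehicle-treated cells that had no counterpart after LSD1 inhibition. They were selected on 3 measured properties: an LSD1 peak with DMSO, no LSD1 peak with the inhibitor within 1 kb of either edge, and an overlap of at least 1 bp with an H3K4me2 or H3K4me1 interval of DMSO cells. Of the 45188 LSD1 peaks with DMSO, 4988 met all 3, which is 18.3% (95% Wilson interval 17.9 to 18.8%) of the 27220 marked ones. The count depends on the limits: it was 3270 with no inhibitor peak within 5 kb, 2511 with both LSD1 lists held to a −log10 q of 2 or more, and 1401 (9.69% of marked peaks) with the DMSO list alone so held. They are called absent marked peaks below, and the other 22232 marked peaks, which had an inhibitor peak within 1 kb, are called retained marked peaks. Over the whole DMSO list, marked or not, 31.2% of peaks had no inhibitor peak within 1 kb. This share is part of the selection and is given as a description.

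The cells were NCI-H526, an established human small cell lung cancer line, profiled by chromatin immunoprecipitation and sequencing (ChIP-seq). LSD1 was mapped in cells given GSK552, which the labelled protocol describes as 1 µM GSK2879552 for 24 hours, and in cells given the vehicle DMSO. The labels repeat that protocol for all samples, and only the libraries named GSK552 were taken as treated. H3K4me2 and H3K4me1 were taken from DMSO cells. The 6 samples held no library of either mark from inhibitor-treated cells, so the marks at these sites after inhibition could not be analysed. Each of the 4 lists came from 1 library, the cells were of 1 line, and no difference between lists has a replicate check or a p-value. Intervals in parentheses are 95% Wilson intervals for shares, 95% Newcombe intervals for differences of shares and 95% binomial intervals for medians. They cover counting error only and treat neighbouring peaks as independent, which they are not.

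LSD1 (KDM1A) is a demethylase acting on the mono- and dimethylated forms of histone H3 lysine 4, and it reaches chromatin mainly through corepressor complexes that contain CoREST proteins. H3K4me1 is the common mark of enhancers, including weak and primed ones, and H3K4me2 is found at active enhancers and around promoters. GSK2879552 inactivates the enzyme by bonding to its FAD cofactor, and an LSD1 protein without activity can still sit on chromatin. A ChIP-seq peak therefore reports the presence of the protein, not its activity. No gene is named at a site because the gene table supplied is on another genome build than the peak positions, which are on hg19.

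The inhibitor list held 49597 peaks with a median −log10 q of 2.88, and the DMSO list 45188 peaks with a median of 1.95. The 2 LSD1 lists covered 27.85 Mb with inhibitor and 28.2 Mb with DMSO. The absent marked peaks covered 2.34 Mb, and the retained marked peaks 18.2 Mb. The depth of the libraries is unknown, and a peak missing from a list is not shown to be without LSD1.

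Absence differed sharply by chromatin class. LSD1 peaks on H3K4me1 without H3K4me2 were absent with inhibitor in 34.6% of cases (33.2 to 36.0%), which is 1537 of 4447. Peaks on both marks were absent in 15.2% of cases (14.6 to 15.8%), 2180 of 14327, and peaks on H3K4me2 without H3K4me1 in 15.0% (14.3 to 15.8%), 1271 of 8446. The difference between H3K4me1 alone and both marks was 19.3 points (17.8 to 20.9). It was smaller under other limits, at 12.499 points with a 5 kb limit, 12.6 points with both LSD1 lists at a −log10 q of 2 or more and 11.6 points with the DMSO list alone so held. The difference between H3K4me2 alone and both marks was −0.167 points (−1.12 to 0.803). Peaks on neither mark were absent most often, in 50.8% of cases (50.1 to 51.6%).

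The absent set was accordingly richer in H3K4me1-only sites than the retained set. Peaks on H3K4me1 alone made up 30.8% of absent marked peaks (29.5 to 32.1%) and 13.1% of retained marked peaks (12.7 to 13.5%). Peaks on both marks made up 43.7% of the absent and 54.6% of the retained set, and peaks on H3K4me2 alone 25.5% and 32.3%. The order of the classes within the absent set was not stable. With a 5 kb limit H3K4me2 alone held 30.3% (28.8 to 31.9%) and H3K4me1 alone 29.5% (27.9 to 31.1%), and these intervals overlapped. Where the peak centre had to lie in the mark, H3K4me1 alone was the largest class at 36.5%. Counting any overlap with a mark, 3451 absent peaks lay on H3K4me2 and 3717 on H3K4me1.

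The reverse direction gave another order of the classes. Of the inhibitor peaks on H3K4me1 alone, 37.4% had no DMSO peak within 1 kb, against 18.7% of those on both marks. For H3K4me2 alone this share was 33.1% (32.2 to 34.0%) of 11359 inhibitor peaks, against 15.0% of the DMSO peaks of that class that were absent with inhibitor. Every class had a higher share in this direction, with 36.1% of all inhibitor peaks against 31.2% of all DMSO peaks, although for no mark the intervals of the 2 shares, 51.5% of inhibitor and 50.8% of DMSO peaks, overlapped. The H3K4me1-only sites had the highest share of the 3 marked classes in both directions.

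Absent marked peaks were mostly weak. Their median LSD1 fold enrichment was 3.46 (3.44 to 3.47), with quartiles of 3.26 and 3.77, and retained marked peaks had a median of 3.69, with quartiles of 3.35 and 4.24. Their median −log10 q was 1.60, against 2.23 for retained marked peaks. Among the 1000 highest-scoring DMSO peaks 731 carried a mark, and 1 of these was absent with inhibitor. The 5000 highest held 72 absent marked peaks and the 10000 highest held 322. The LSD1 score is tied to the selection, since a site has to pass a threshold in the list, so these values describe the set and test nothing.

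H3K4me1-only peaks had the highest absent share of the 3 marked classes at every LSD1 score. From the weakest to the strongest of 10 score deciles, the absent share went from 63.2% to 4.75% for H3K4me1 alone, from 42.5% to 1.05% for both marks and from 34.2% to 1.82% for H3K4me2 alone. H3K4me1-only peaks were above peaks on both marks, and above H3K4me2-only peaks, in 10 of 10 deciles. In decile 10 the intervals of H3K4me1 alone (3.21 to 6.97%) and H3K4me2 alone (0.926 to 3.55%) overlapped. Unmarked peaks were above H3K4me1-only peaks in 10 of 10 deciles, with overlapping intervals in decile 10. H3K4me2-only peaks were below peaks on both marks in 9 of 10 deciles, with overlapping intervals in deciles 5 to 9. In decile 1 they stood at 34.2% (30.7 to 37.9%) and 42.5% (39.1 to 46.0%), and in decile 10, the exception, at 1.82% (0.926 to 3.55%) and 1.05% (0.704 to 1.55%), where the intervals overlapped. The order of H3K4me1 alone over the other classes was also found in 5 of 5 quintiles of peak width.

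**Figure D1:**
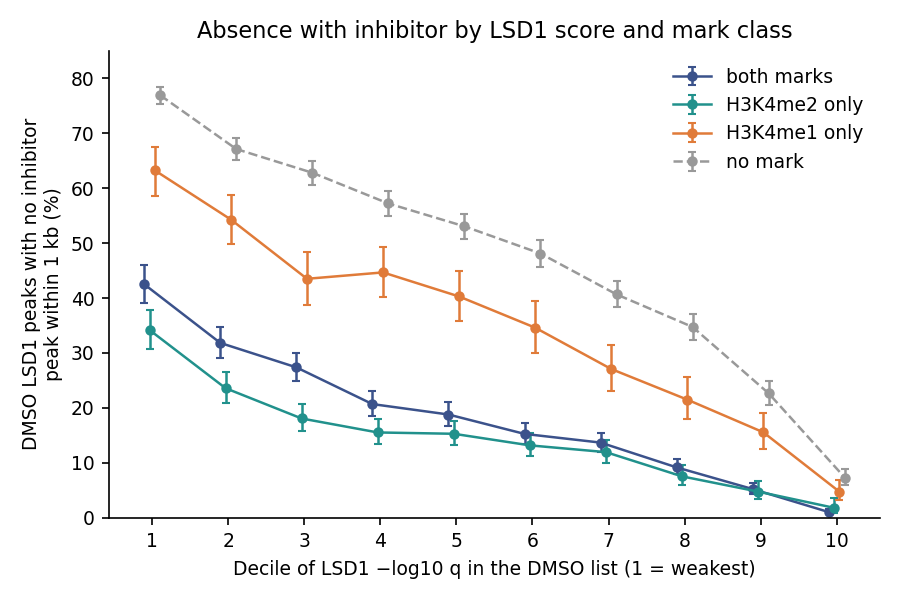
Share of DMSO LSD1 peaks with no inhibitor peak within 1 kb (y axis, %) by decile of LSD1 −log10 q (x axis), for peaks on both marks, H3K4me2 only, H3K4me1 only and no mark, with 95% Wilson intervals as bars. The H3K4me1-only line runs above both lines with H3K4me2 in every decile, from 63.2% in decile 1 to 4.75% in decile 10, and the unmarked line lies above it.

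Absent marked peaks were narrower than retained ones, at a median of 398 bp (387 to 408), while retained ones measured 653 bp (646 to 661). A wide peak meets another within 1 kb more easily by its extent alone. By class, the absent peaks measured 442 bp on both marks, 402 bp on H3K4me2 alone and 338 bp on H3K4me1 alone, and the retained ones 752, 601 and 455 bp. The median width of the absent set was below that of the retained set in 10 of 10 score deciles, with 423 against 458 bp in decile 1 and 286 against 794 bp in decile 10.

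The histone marks under absent peaks were weaker and narrower. These values come from libraries other than LSD1, and the selection asked only for an overlap, which both groups had. The median H3K4me2 interval under an absent peak had a fold of 7.55 (7.39 to 7.90) and stood at the 63.3rd percentile of its list, against a fold of 9.22 (9.15 to 9.37) and the 75.6th percentile under retained peaks. For H3K4me1 the median fold was 6.03 (5.91 to 6.23) at percentile 70.4 under absent peaks, against 6.91 (6.82 to 6.97) at percentile 83.2 under retained peaks. Of the peaks on H3K4me1, 1537 of 3717 absent and 2910 of 15057 retained ones lay on H3K4me1 alone. The part of this class makeup in the H3K4me1 values was not tested. Widths of the H3K4me2 intervals had medians of 726 and 1063 bp, and those of the H3K4me1 intervals 742 and 1082 bp, under absent and under retained peaks. Where an LSD1 peak met several intervals of a mark, the one with the highest −log10 q was taken. A wider LSD1 peak can meet more intervals, and wider ones, by its extent alone. The part of LSD1 width in these values, and in those by LSD1 score below, was not tested.

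The weaker mark under absent peaks was found at every LSD1 score, with a lower median percentile than under retained peaks in 10 of 10 deciles for H3K4me2 and in 10 of 10 for H3K4me1. Conversely, absence fell with the strength of H3K4me2 under the peak. In the weakest tertile of LSD1 scores, 46.2% of peaks on the weakest tertile of H3K4me2 intervals were absent, 34.9% on the middle tertile and 21.8% on the strongest. In the strongest tertile of LSD1 scores the shares were 9.80%, 6.34% and 3.81%. For H3K4me1 the same tertiles gave 42.1%, 45.3% and 34.5% at the weakest LSD1 scores, where the intervals of the first 2 overlapped, and 12.4%, 10.8% and 5.32% at the strongest.

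**Figure D2:**
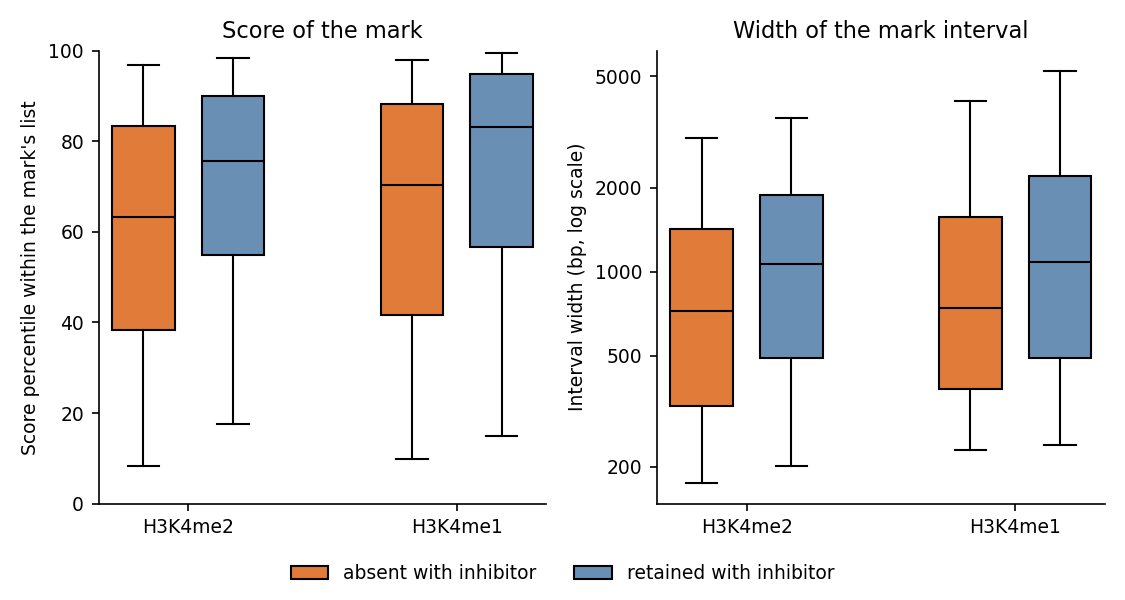
Score percentile (left, y axis) and width in bp on a log axis (right) of the H3K4me2 and H3K4me1 intervals under absent and retained marked LSD1 peaks; boxes give the median and quartiles, whiskers the 5th and 95th percentiles. Medians under absent peaks were lower for both marks, at percentiles 63.3 against 75.6 for H3K4me2 and 70.4 against 83.2 for H3K4me1.

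Absent peaks had their centres inside the mark at least as often as retained ones. The peak centre lay inside the H3K4me2 interval for 69.0% of absent and 64.4% of retained peaks, and inside the H3K4me1 interval for 69.6% and 57.7%. The median distance from the peak centre to the mark's summit was 224.5 bp against 322 bp for H3K4me2. For H3K4me1 it was 268.5 bp against 448 bp. Narrower mark intervals allow shorter distances, and narrower LSD1 peaks keep their centres nearer to a mark they overlap. By H3K4me2, a mean of 72.4% of the absent and 72.1% of the retained peak was covered, and by H3K4me1 72.9% and 67.1%. The part of either width in these values was not tested. An H3K4me1-only site that was absent lay a median of 4701 bp (3724 to 5664) from the nearest H3K4me2 interval, and a retained one 3949 bp (3344 to 4464), and these intervals overlapped. Of the absent H3K4me1-only sites 28.0% had H3K4me2 within 1 kb, against 36.8% of the retained ones.

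Seen from the marks, few intervals carried absent and retained peaks together. Of 28927 H3K4me2 intervals with LSD1 in DMSO cells, 3817 (13.2%) carried absent peaks and no retained one, while 124 carried both kinds. Of 22405 H3K4me1 intervals with LSD1, 3933 (17.6%) carried absent peaks only and 229 carried both kinds. The selection itself favours this split, because an inhibitor peak within 1 kb makes a peak retained and nearby peaks on 1 interval can share that inhibitor peak.

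Most absent marked peaks, 83.8%, were more than 2 kb from any LSD1 peak with inhibitor. The nearest inhibitor peak was a median of 10058 bp away, with quartiles of 3030 and 28283 bp. Of the absent marked peaks, 50.1% were more than 10 kb from any inhibitor peak and 4.51% more than 100 kb. Absent unmarked peaks lay farther away, at a median of 13616 bp, with 92.0% over 2 kb and 59.1% over 10 kb. H3K4me2-only sites were the most isolated of the 3 classes, 17682 bp away at the median, and sites on both marks and on H3K4me1 alone had medians of 7482 bp and 8810 bp. At the limit itself, the 3 nearest members outside it were 1001, 1002 and 1003 bp from an inhibitor peak, with LSD1 folds of 3.75, 4.05 and 3.23. The 3 marked peaks just inside it were 1000, 998 and 997 bp away, with folds of 3.52, 3.48 and 2.92.

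**Figure D3:**
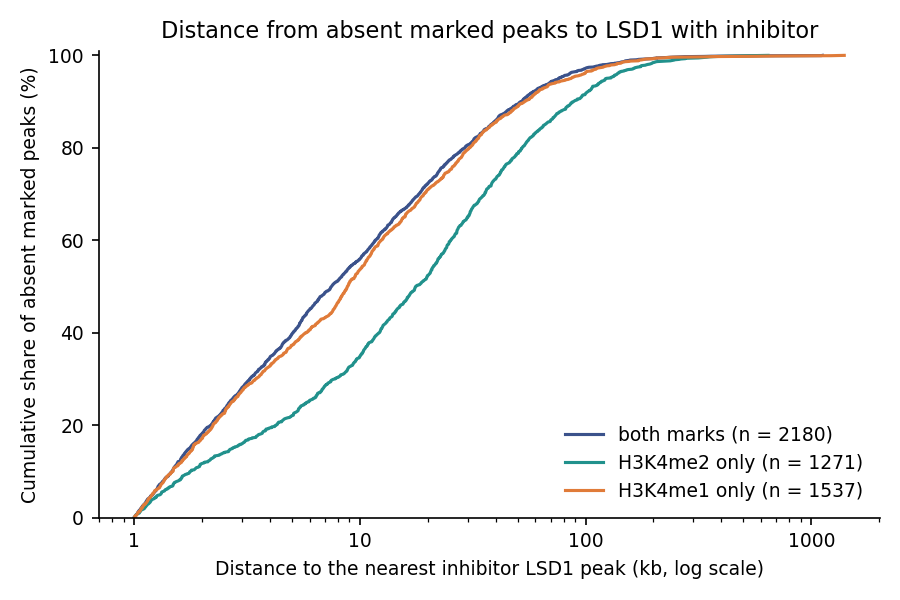
Cumulative share of absent marked peaks (y axis, %) by distance to the nearest inhibitor LSD1 peak in kb (x axis, log scale), for the 2180 peaks on both marks, 1271 on H3K4me2 only and 1537 on H3K4me1 only. The lines begin at the 1 kb limit, and the H3K4me2-only line lies to the right of the others, with a median of 17682 bp.

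Most absent marked peaks had no other absent marked peak nearby, and no other set of this size was compared. Of the 4988, 4160 had no other absent marked peak within the stitching gap, a distance midway between 12 and 13 kb that is commonly used to join enhancers. When all DMSO peaks were joined over that gap, 43.5% of absent marked peaks stood alone, 45.2% (43.8 to 46.6%) shared their cluster with at least 1 retained LSD1 peak, and 11.3% shared it with other peaks of which none was retained. Retained marked peaks stood alone in 39.95% of cases, and 52.4% had another retained peak in the cluster. The remaining 7.69% (7.35 to 8.05%) of retained marked peaks had other peaks of which none was retained, against 11.3% (10.4 to 12.2%) of absent ones. Among absent peaks, 42.7% of H3K4me2-only sites had another DMSO peak in the cluster, against 62.6% of sites on both marks and 59.2% of H3K4me1-only sites. Retained marked peaks had the same order of classes, at 50.1%, 65.7% and 60.8%. Joined among themselves over the same gap, the other absent peaks formed 343 places with 2 peaks, 42 with 3 and 4 with 4.

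Of these 4 places, the one at chromosome 9, 103821869 to 103836430, had no peak in the inhibitor list. All 4 of its DMSO peaks lay on both marks, with folds from 3.51 to 4.06. The place at chromosome 1, 10817100 to 10838216, held 4 absent peaks on both marks and 1 retained peak. At chromosome 1, 204542584 to 204557968, there were 4 absent peaks on both marks and 3 retained ones. The place at chromosome 3, 20139533 to 20165202, held 3 absent peaks on H3K4me1 alone and 1 on both marks, beside 2 retained peaks.

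The strongest absent marked peak lay at chromosome 12, 6948940 to 6949607, with an LSD1 fold of 7.14 and a −log10 q of 12.0, and ranked 297 in the DMSO list. It lay on both marks, on a 338 bp H3K4me2 interval at percentile 42.4 and a 2206 bp H3K4me1 interval at percentile 89.9. The nearest inhibitor peak was 3629 bp away. The next by score, at chromosome 6, 71763060 to 71763234, was only 175 bp wide, with a fold of 7.11, on a 1416 bp H3K4me1 interval at percentile 81.9 and 40218 bp from an inhibitor peak. The third, at chromosome 2, 171140461 to 171140937, had a fold of 6.69 and touched an H3K4me1 interval at percentile 0.137, among the weakest of its list. The marks under these 3 absent peaks thus ranged from strong to very weak.

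Among the 10 strongest absent marked peaks, 6 lay on both marks, 3 on H3K4me1 alone and 1 on H3K4me2 alone. Of the 10, 5 stood alone in their cluster and 3 had a retained LSD1 peak in the cluster. The strongest H3K4me2-only site was at chromosome 19, 9419846 to 9420096, with an LSD1 fold of 6.14 on a 1279 bp H3K4me2 interval at percentile 71.9. It lay 13908 bp from an inhibitor peak. One of the 10, at chromosome 13, 45853682 to 45854311 (fold 6.30), was 1018 bp from an inhibitor peak and so just outside the limit.

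The widest absent marked peak, at chromosome 7, 854591 to 857937, measured 3347 bp and lay on H3K4me2 alone, at percentile 94.8 and a fold of 19.0 for the mark. Its LSD1 fold was 3.66, and the nearest inhibitor peak was 55105 bp away. The peak at chromosome 9, 117373379 to 117375537, was 2159 bp wide, lay on both marks and was 56575 bp from an inhibitor peak. The other 3 of the 5 widest, on chromosomes 8, 1 and 10, measured 2773, 2149 and 2143 bp and lay 2526, 4285 and 2261 bp from an inhibitor peak.

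The share of marked peaks that were absent varied by chromosome. It was highest on chromosomes 10 (29.2%, 26.4 to 32.2%), 22 (28.4%, 24.5 to 32.7%) and X (25.7%, 22.3 to 29.4%), and lowest on chromosomes 13 (10.8%, 8.997 to 12.8%) and 11 (13.5%, 12.0 to 15.1%). All 3 chromatin classes showed this: on chromosomes 10 and 13, H3K4me1-only peaks were absent in 43.4% and 22.7% of cases, peaks on both marks in 26.1% and 9.14%, and H3K4me2-only peaks in 25.6% and 5.29%. Unmarked peaks varied less, from 43.4% on chromosome 13 to 55.5% on chromosome 12. These shares cover chromosomes 1 to 22 and X.

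These shares moved with the background of the peak lists. The background implied by each interval's fold and p-value, given relative to the median of its list, was low where absence was frequent. For H3K4me2 intervals its median was 0.631 on chromosome 10 and 1.48 on chromosome 13. Across 23 chromosomes, the absent share of marked peaks and the H3K4me2 background had a Spearman rho of −0.908 and a Pearson r of −0.907, and without the 2 chromosomes farthest from the median background the values were −0.883 and −0.878. With the background from H3K4me1 intervals rho was −0.918. For unmarked peaks rho was −0.0188 and r −0.183, and without the 2 chromosomes −0.0104 and −0.136. For marked inhibitor peaks with no DMSO peak within 1 kb rho was −0.512 and r −0.682, and without the 2 chromosomes −0.358 and −0.474. The points share the same libraries, and chromosomes differ in the number of marked peaks from 310 to 2736, so these values are descriptions.

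**Figure D4:**
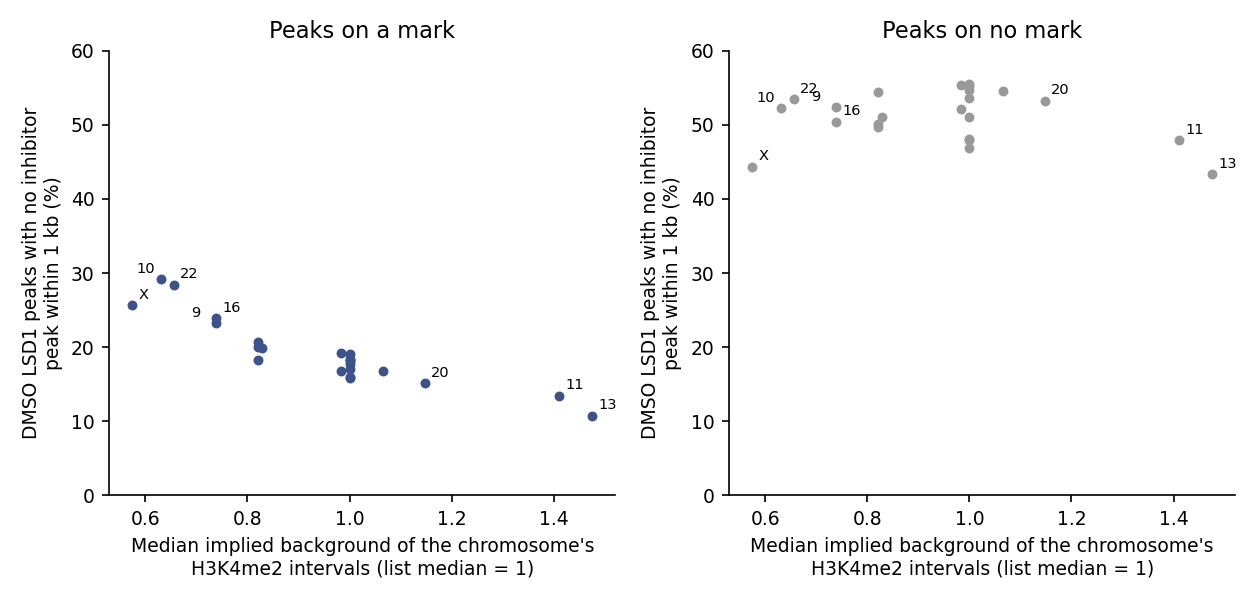
Share of DMSO LSD1 peaks with no inhibitor peak within 1 kb (y axes, %) for peaks on a mark (left) and on no mark (right), against the median implied background of each chromosome's H3K4me2 intervals (x axes, list median 1); each point is 1 chromosome, and the 5 highest and 3 lowest by marked share are labelled. Marked shares are lower where background is higher, from 29.2% on chromosome 10 to 10.8% on chromosome 13, and unmarked shares show no such order.

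The same was seen within chromosomes. Each chromosome was divided at its longest stretch without a peak in any list, a rule chosen after the data were seen, which left 19 chromosomes with at least 50 marked peaks on each side. On chromosome 9, 28.1% (24.8 to 31.6%) of marked peaks after the stretch were absent, against 12.6% (9.37 to 16.8%) before it, with median backgrounds of the mark intervals of 0.7 and 1. On chromosome 3, 26.7% (23.4 to 30.4%) before the stretch and 15.3% (13.2 to 17.8%) after it were absent, with backgrounds of 0.738 and 1. On chromosome 8 the shares were 27.3% and 12.9% before and after, with backgrounds of 0.695 and 1.22. Of 18 chromosomes whose 2 sides differed in background, the side with the lower background had the higher absent share in 15, and the exceptions were chromosomes 4, 10 and 13. Among the 15, the intervals of the 2 sides overlapped on chromosomes 1, 2, 5, 6, 7, 12, 16 and 20. On chromosomes 2 and 12 the backgrounds were close, at 0.984 and 1.

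Local background, taken for each LSD1 peak from the mark intervals within 1 Mb that did not overlap it, gave the same order at equal LSD1 score. In the lowest quintile of local background 26.1% (24.9 to 27.3%) of marked peaks were absent, and in the highest 11.9% (11.1 to 12.8%). The median LSD1 −log10 q of these marked peaks was 1.92 in the lowest and 2.22 in the highest quintile. H3K4me2-only peaks had the widest range of the 3 classes, from 24.9% to 6.97%, followed by both marks, from 22.4% to 9.98%, and H3K4me1 alone, from 39.4% to 28.8%. Unmarked peaks rose and fell, at 48.3%, 50.8%, 55.5%, 54.0% and 45.1% from the lowest to the highest quintile. The share was higher in the lowest than in the highest quintile in 10 of 10 LSD1 score deciles, for example 48.8% against 35.6% in decile 1 and 3.60% against 1.30% in decile 10. H3K4me1-only peaks remained above both classes with H3K4me2 in 5 of 5 quintiles. For marked inhibitor peaks without a DMSO peak within 1 kb the shares were 30.2% in the lowest and 24.7% in the highest quintile. The measure was chosen after the data were seen, and the part of background in the absence of LSD1 peaks was not tested.

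**Figure D5:**
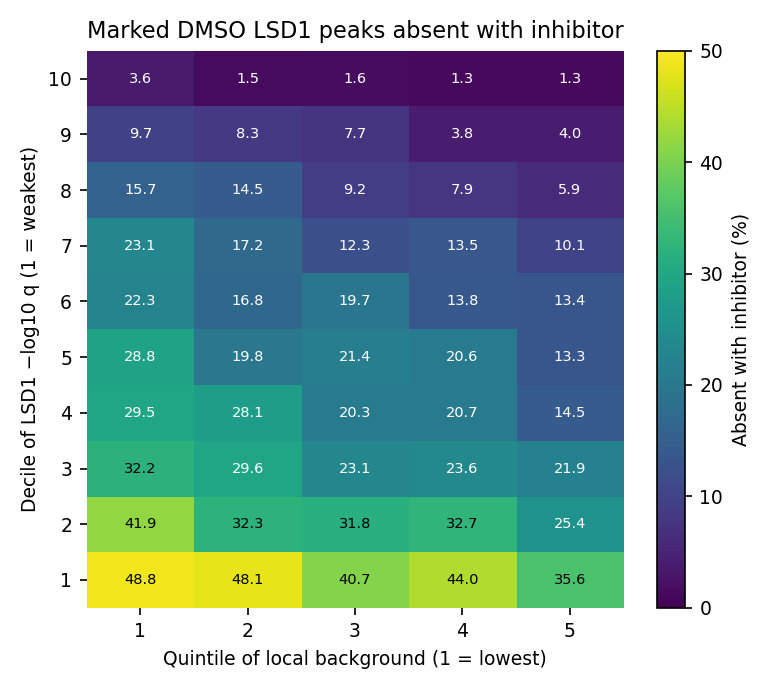
Percent of marked DMSO LSD1 peaks absent with inhibitor (colour and printed value) by quintile of local background (x axis) and decile of LSD1 −log10 q (y axis). Values are 48.8% at the weakest score and lowest background, and 1.30% at the strongest score and highest background.

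The 122 DMSO peaks in stretches with a local background over 6 times the list median were at the far end of the background range. Of the 60 that carried a mark, 3 were absent with inhibitor (5.00%, 1.72 to 13.7%). This interval includes the 11.9% of the highest quintile, so no further fall is shown.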

How the data were processed

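Per the submitters' processing notes, BWA, Picard and MACS2 2.0 were used with genome build hg19. The sources used here give no depth, control or duplicate handling. The deposited files have no header and were read by MACS2's layout, broad for LSD1 and narrow for the marks. The deposited score is 10 times the −log10 q, which held on all rows of the 4 lists to within 1. The deposited fold is the authors' ratio of a peak to the caller's background, and the significance of each peak was deposited by the authors as −log10 p and −log10 q. They were used to describe and rank peaks within a list; fold and −log10 p also gave the implied background.

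The 178083 rows for H3K4me2 and 175135 for H3K4me1 were reduced to 81619 and 94689 distinct intervals, keeping the summit with the highest −log10 q. The smallest −log10 q was 1.01 for LSD1 with inhibitor, 1.00 for LSD1 with DMSO, 2.02 for H3K4me2 and 2.01 for H3K4me1, so LSD1 lists reach to weaker peaks. A gap of 1000 bp or less counted as within 1 kb. The implied background is the background at which the fold (pseudocount 1) has its Poisson p-value; it had no solution for 11.5% of inhibitor LSD1 peaks and was found for all intervals of the other lists. A local background needed 10 mark intervals within 1 Mb; 11 absent marked peaks had none. Interval search and background code were tested on simulated data.

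The peaks, lists and alternatives were chosen with earlier results of these data known. Peaks were named by rule: the 10 highest scores, the 5 highest of each class, the 5 widest, the 3 on either side of the limit and the 3 places with most members. The place on chromosome 9, tied with them, was added after its values were seen. The leading peaks of each set are given. The planned gene lists, positions in genes and sequence motifs were not analysed here, because the gene table and promoter sequences are on GRCh38 and no hg19 genome was used. For that reason no sequence is printed. The 2 inputs were not used. Python 3.11.15, pandas 2.3.3, scipy 1.17.1 and statsmodels 0.14.6 were used.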

Additional observations from a re-analysis of the deposited data

How the results depend on the processing

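No paired analysis was possible because no group held more than 1 library. Depth is unknown and limits which weak peaks could be found in either list. Of the 12 values followed below under 9 alternatives, the class difference and the rank correlation kept their sign under all 9. The order of the classes in the absent set did not stay the same. H3K4me2 alone was above H3K4me1 alone with both LSD1 lists at −log10 q of 2 or more. It was also above with no overlap and with 5 kb, where the intervals of the 2 shares overlapped. H3K4me1 alone was the largest class by peak centres, with 50% coverage and with the stronger marks. On chromosomes 1 to 22 all 12 stayed within their counting intervals, or within 1.5 times for the number of peaks, and the rank correlation with background stayed within 0.1 of −0.908 under all 9. The class difference and that correlation were added after the data were seen. The cause of the changes below was not tested.

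The number of absent marked peaks (4988) was 3270 with a 5 kb limit, 2511 with both LSD1 lists at −log10 q of 2 or more, and 1401 with only the DMSO list so limited. With no overlap in place of 1 kb, absence was 24.7% for marked (otherwise 18.3%) and 55.2% for unmarked peaks (otherwise 50.8%), H3K4me2 alone made up 28.3% and H3K4me1 alone 27.7%, fold was 3.43, percentile of the stronger mark 80.4 (otherwise 76.2), share with another DMSO peak in the cluster 60.6% (otherwise 56.5%) and the H3K4me1-only excess over both marks 21.3 points. With 5 kb these were 12.0%, 38.8%, 30.3%, 29.5%, 3.48, 72.2, 40.3% and 12.499 points, with 40.2% on both marks.

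By peak centres, unmarked absence was 42.5%, the classes (both marks, H3K4me2 alone, H3K4me1 alone) 31.6%, 31.9% and 36.5%, width 378 bp, mark percentile 79.1, clustered share 58.0% and the excess 13.4 points. With 50% of the peak covered they were 43.7%, 31.8%, 31.4%, 36.9%, 381 bp, 80.6, 58.1% and 13.8 points.

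With both LSD1 lists at −log10 q of 2 or more, absence was 17.4% marked and 38.9% unmarked, the classes 48.6%, 28.4% and 23.1%, width 381 bp, fold 3.99, mark percentile 80.4, clustered share 32.2% and the excess 12.6 points. With the DMSO list alone so limited, absence was 9.69% and 31.3%, the classes with H3K4me2 47.1% and 23.2%, width 282 bp, fold 4.02, mark percentile 74.1, clustered share 32.0% and the excess 11.6 points.

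With the stronger 50% of mark intervals, absence was 16.3% and 47.2%, the classes 25.8%, 31.9% and 42.3%, width 420 bp, fold 3.44, mark percentile 83.7, clustered share 58.6% and the excess 16.2 points. At equal length of the LSD1 lists, absence was 21.7% and 53.6%, H3K4me2 alone 27.0%, H3K4me1 alone 28.4%, width 409 bp and mark percentile 78.4.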

Other observations

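The H3K4me2-only sites are described here at the 2 ends of the local background range. In the highest quintile of local background 6.97% (5.73 to 8.46%) of them were absent with inhibitor, the lowest share of any class, and in the lowest quintile 24.9% (23.1 to 26.7%), above the 22.4% of peaks on both marks. The order of these 2 classes was thus turned in the lowest quintile, where the intervals of the shares, 23.1 to 26.7% and 20.8 to 24.1%, overlapped. The median LSD1 −log10 q in that quintile was 1.79 for H3K4me2 alone and 2.11 for both marks. The 2 shares of H3K4me2 alone were singled out after they were seen.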
